A study of Mus musculus with 24 samples.

Results

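The receptors, co-receptors and ligands of vascular endothelial growth factor (VEGF) were followed across 8 groups of cultured mouse retinal endothelial cells. The members are the probe sets that the array platform's annotation assigns to Kdr, Flt1, Nrp1, Nrp2, Vegfa, Vegfb, Vegfc or Pgf, which are 20 probe sets of 45101. These stand for 8 genes of 18193 with a named probe set. Kdr, Vegfb and Pgf have 1 probe set each, Vegfa has 2, Vegfc has 3, and Flt1, Nrp1 and Nrp2 have 4 each. Each gene is described by its brightest probe set over all arrays, and the others are given where they differ.

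The 24 arrays form 8 groups of 3, with wild type and Fz4-/- cells in each of 4 cultures. Fz4-/- cells lack frizzled-4, the receptor of the secreted ligand Norrin. All cells, wild type included, came from adult mice of both sexes on a mixed C57Bl6/129 background that carry the Immorto-mouse transgene. In that transgene the H2Kb promoter, which answers to gamma interferon, drives a temperature-sensitive SV40 large T antigen, so the cells are conditionally immortalised lines. They were purified with antibodies, and RNA was taken after a shift to the reverting temperature without interferon. How many lines or animals stand behind a genotype or a replicate is not given in the sources used here. The p-values therefore describe the spread among these arrays alone, which may be technical. One pair of groups grew on gelatin. Another was starved in 1% serum for 24 hours and then plated in that medium on a layer of Matrigel, an extract of basement membrane, for 6 hours. The remaining pairs were cultured together with human embryonic kidney HEK293 cells, either a control line or a line that stably makes Norrin, and by the labels these samples hold endothelial and human RNA at close to a 1 to 1 ratio. The study thus asks how endothelial cells respond to Norrin and what loss of its receptor changes.

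VEGF signalling is the main growth and survival pathway of endothelial cells. Kdr encodes VEGF receptor 2, the kinase that carries most of the signal, and Flt1 encodes VEGF receptor 1, which binds VEGF-A tightly but signals weakly and also exists as a soluble decoy. The neuropilins Nrp1 and Nrp2 are co-receptors that bind VEGF and class 3 semaphorins, with Nrp1 typical of arterial and Nrp2 of venous and lymphatic endothelium. Vegfa is the chief ligand of both kinases, Vegfb and Pgf bind Flt1, and Vegfc binds Flt4 and Kdr. In the retina, Norrin acts through frizzled-4 to drive beta-catenin signalling that the vessels need to grow and to form their barrier.

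The 250 bases before the start of Kdr, Flt1, Nrp1 and Nrp2 are shown because the results on receptors and co-receptors turn on these genes, with Nrp1 and Nrp2 differing in opposite directions. They are RefSeq sequence on GRCm38.p6, written 5′ to 3′ on the gene's strand. Kdr is chr5:75978456-75978705 on the minus strand, Flt1 is chr5:147726012-147726261 on the minus strand, Nrp1 is chr8:128358823-128359072 on the plus strand and Nrp2 is chr1:62703067-62703316 on the plus strand. Capitals mark the core letters GGAA, or TTCC on the other strand, that ETS factors recognise.
Kdr: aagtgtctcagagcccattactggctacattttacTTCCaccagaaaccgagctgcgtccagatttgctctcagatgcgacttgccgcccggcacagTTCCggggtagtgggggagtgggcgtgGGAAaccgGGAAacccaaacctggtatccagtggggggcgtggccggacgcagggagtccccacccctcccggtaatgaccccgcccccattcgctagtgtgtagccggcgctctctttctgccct
Flt1: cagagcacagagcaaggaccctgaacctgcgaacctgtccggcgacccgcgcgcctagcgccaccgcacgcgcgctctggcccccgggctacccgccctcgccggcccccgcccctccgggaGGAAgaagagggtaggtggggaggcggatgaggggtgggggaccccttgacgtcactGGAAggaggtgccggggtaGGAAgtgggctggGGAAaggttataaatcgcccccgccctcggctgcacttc
Nrp1: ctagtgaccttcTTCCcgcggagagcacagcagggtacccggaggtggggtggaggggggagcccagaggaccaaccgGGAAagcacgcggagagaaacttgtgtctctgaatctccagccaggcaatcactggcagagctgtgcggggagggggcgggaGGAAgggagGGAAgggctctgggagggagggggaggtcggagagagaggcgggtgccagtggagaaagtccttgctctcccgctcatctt
Nrp2: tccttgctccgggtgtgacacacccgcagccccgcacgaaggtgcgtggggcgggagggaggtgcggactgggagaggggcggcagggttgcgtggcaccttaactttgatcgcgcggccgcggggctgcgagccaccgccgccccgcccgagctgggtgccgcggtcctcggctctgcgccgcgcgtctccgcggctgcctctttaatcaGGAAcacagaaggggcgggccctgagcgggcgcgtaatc

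The windows hold 4 matches in Kdr, 4 in Flt1, 4 in Nrp1 and 1 in Nrp2. Of 32851 promoter windows of this length, 93.4% hold at least 1 match, with a median of 3.0 and a 95th percentile of 6.0 matches, so these 4 counts are common ones. The hypoxia response core ACGTG, which reads CACGT on the other strand, is in 16.6% of the windows and was found among the members' windows only in the second of 2 for Vegfa, 1 time. The core of Sox factor sites, ACAAT, which reads ATTGT on the other strand, is in 27.7% of the windows and in 0 of the members' windows. A match describes letters and says nothing of binding.

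Fzd4, the deleted gene, read 8.63 ± 0.06 log2 (SD, n = 3) on Matrigel in wild type arrays against 4.89 ± 0.27 in Fz4-/- arrays, and was lower in Fz4-/- arrays in all 4 cultures, although the part of the gene that is missing is not given. Of 12 endothelial markers, 11 had group means of 8.69 to 13.4 in cells grown alone, while Vwf stayed at 3.05 to 3.30. Of 37 markers of other retinal and vessel cell types, 32 were below the median gene, and Notch3, Dcn, Acta2, Glul and Cd68 were above it. The 4 lymphatic markers were not in this count. In cells grown alone Lyve1 had group means of 9.09 to 12.3 and Flt4 of 10.3 to 10.6. Those of Pdpn (4.46 to 4.93) and Prox1 (3.49 to 3.79) were lower. Array medians fell into 3 sets, at 5.02 to 5.11 log2 for the 12 cultures grown alone, 3.44 to 3.52 for wild type co-cultures and 3.21 to 3.31 for Fz4-/- co-cultures. Levels are therefore compared only within a set, and genotype cannot be told apart from array set in the co-cultures. In 6 of 8 groups replicate 1 stood apart from replicates 2 and 3, where the SD over genes of the difference between arrays was 0.299 to 0.354 with replicate 1 and 0.147 to 0.193 without it, so counts are also given without replicate 1. In co-cultures, fewer endothelial cells and less RNA per cell cannot be told apart, and the share of human RNA in each value was not tested.

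**Figure D1:**
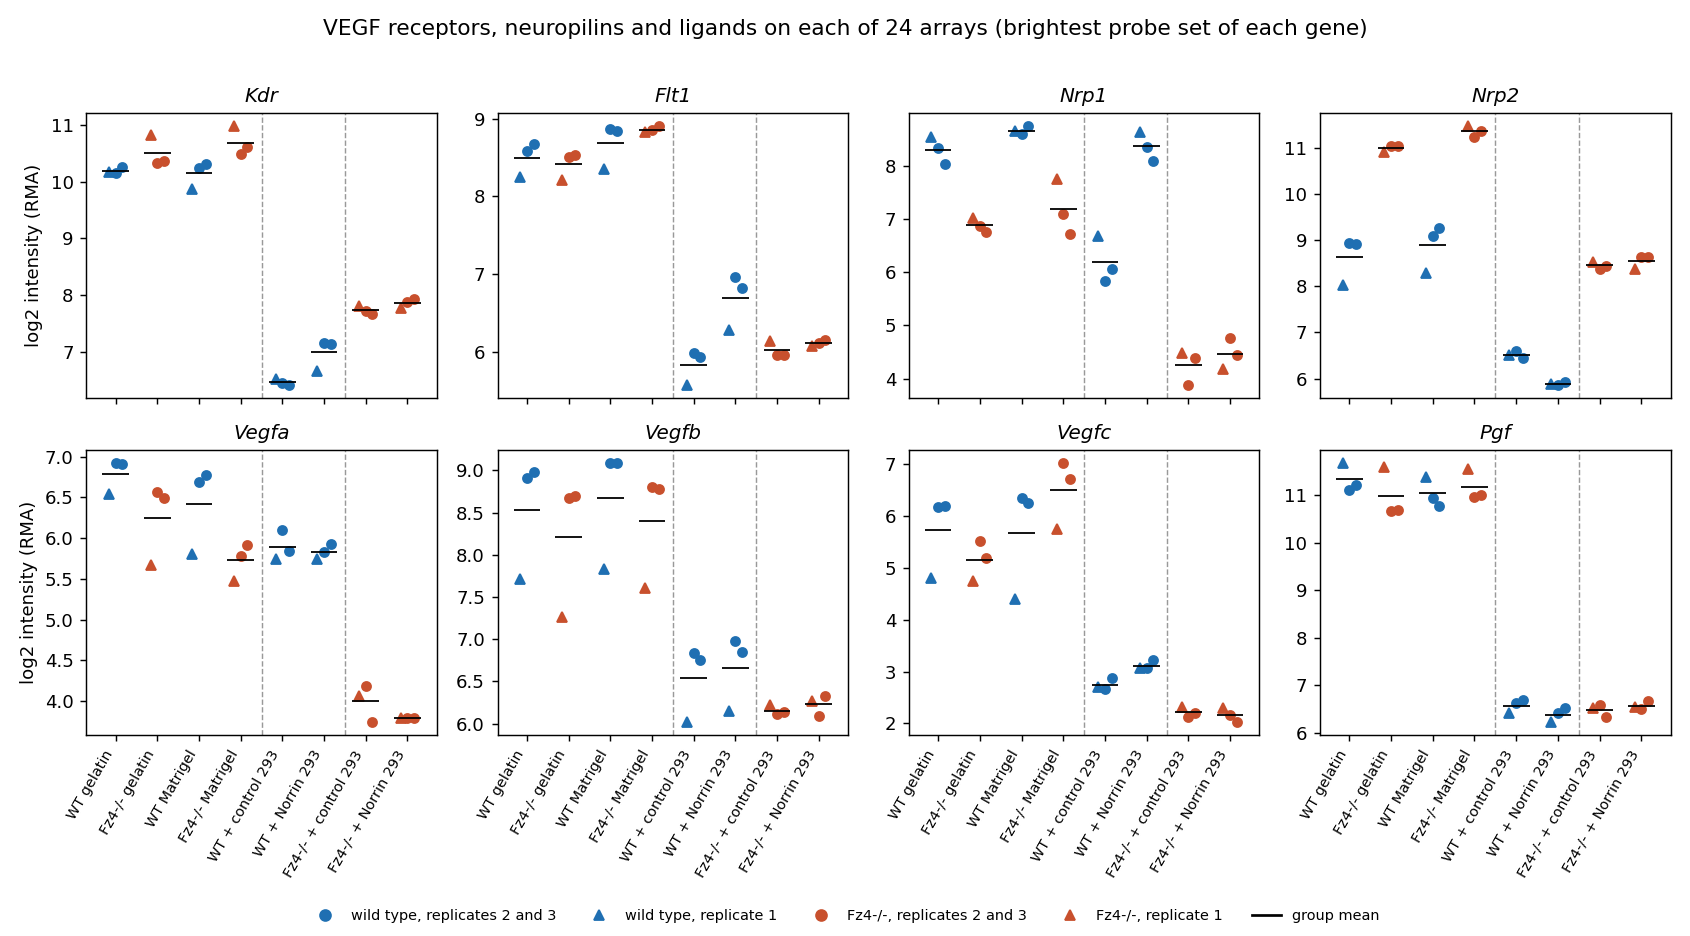
Log2 intensity of the 8 genes on each of 24 arrays, with a panel per gene, groups along the horizontal axis, triangles for replicate 1, circles for replicates 2 and 3, and bars for group means. Dashed lines part the 3 array sets, between which levels are not compared. Nrp1 and Nrp2 separate the genotypes, and Nrp1 separates wild type co-cultures with and without Norrin.

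The first comparison asks what loss of frizzled-4 changes in cells grown alone on gelatin. Nrp2 was 5.20-fold higher and Nrp1 2.69-fold lower in Fz4-/- cells, and these 2 of 8 members were past the threshold. The threshold here and below is a Benjamini-Hochberg adjusted p of 0.05 over all genes in limma, a linear model that pools the spread of genes. On gelatin 14.9% of all genes passed it. The median difference over the 8 members was -0.34 log2, beside -0.004 over all genes.

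Nrp2 read 8.03, 8.93 and 8.92 log2 in wild type replicates 1 to 3 on gelatin. In Fz4-/- cells it read 10.92, 11.04 and 11.05. Every Fz4-/- array was above every wild type array, and wild type replicate 1 was the lowest of all. The difference of 2.38 ± 0.26 (SE; adjusted p = 9.35e-05) has a 95% interval of 1.81 to 2.95. All 4 Nrp2 probe sets were higher in Fz4-/- cells, by 1.60 to 2.57, where 12.6% of all probe sets passed.

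Nrp1 read 8.56, 8.34 and 8.03 log2 in wild type cells and 7.02, 6.86 and 6.77 in Fz4-/- cells. The groups did not overlap, in the direction opposite to Nrp2. The difference was -1.43 ± 0.21 (SE; adjusted p = 0.000941), with an interval of -1.90 to -0.96. All 4 Nrp1 probe sets were lower, by -0.89 to -1.57.

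The kinases did not pass. Kdr read 10.17, 10.15 and 10.26 log2 in wild type and 10.83, 10.34 and 10.37 in Fz4-/- cells on gelatin. These values do not overlap, Fz4-/- replicate 1 lies highest, and the difference of 0.32 ± 0.17 (SE) had an adjusted p of 0.247. Flt1 differed by -0.08 ± 0.15, with overlapping arrays. Of its 4 probe sets 1 was lower in Fz4-/- cells by -0.62 ± 0.16 (adjusted p = 0.0240 over all probe sets), and the others differed by -0.08 to -0.43. Of the 8 members, 3 had arrays that did not overlap between the genotypes on gelatin, beside 32.6% of all genes.

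The ligands did not pass on gelatin, and their arrays overlapped. Vegfa differed by -0.55 ± 0.28, Vegfb by -0.32 ± 0.50, Vegfc by -0.57 ± 0.53 and Pgf by -0.35 ± 0.26 log2. Equal replicate numbers deviated together here, and with the replicate number as a block 5 of 8 members passed, beside 22.7% of all genes. The added calls were Vegfa (-0.55 ± 0.13, adjusted p = 0.0110), Vegfb (-0.32 ± 0.07, adjusted p = 0.00877) and Pgf (-0.35 ± 0.10, adjusted p = 0.0269), all lower in Fz4-/- cells. Without replicate 1 of every group 6 of 8 passed, beside 27% of all genes.

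On Matrigel both neuropilins again separated the genotypes, and Kdr passed as well. Nrp2 was 5.56-fold higher, Nrp1 2.78-fold lower and Kdr 1.46-fold higher in Fz4-/- cells. Thus 3 of 8 members passed, beside 15.7% of all genes. The members' median difference was 0.16, beside 0.02 over all genes.

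Nrp2 read 8.30, 9.10 and 9.27 log2 in wild type cells on Matrigel and 11.48, 11.25 and 11.37 in Fz4-/- cells. The groups lay over 1 log2 apart at every array, and the difference was 2.48 ± 0.26 (SE; adjusted p = 7.14e-05). Nrp1 read 8.65, 8.60 and 8.76 in wild type and 7.76, 7.09 and 6.72 in Fz4-/- cells, a difference of -1.48 ± 0.21 (SE; adjusted p = 0.000737). Here Fz4-/- replicate 1 was the highest Nrp1 value of its group but still below each wild type array. All 4 probe sets of each neuropilin passed, by 2.02 to 2.64 for Nrp2 and -0.72 to -1.48 for Nrp1, beside 13.3% of all probe sets.

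Kdr read 9.88, 10.25 and 10.32 log2 in wild type and 10.99, 10.49 and 10.61 in Fz4-/- cells on Matrigel. The arrays did not overlap, and replicate 1 was the lowest wild type and the highest Fz4-/- array. The members that did not overlap on Matrigel were these 3 of 8, beside 32.7% of all genes. The difference of 0.55 ± 0.17 (SE; adjusted p = 0.0433) lay close to the threshold. It was not past it when Fz4-/- replicate 1 or 3, or wild type replicate 1, 2 or 3, was left out, with adjusted p of 0.152, 0.0694, 0.135, 0.0779 and 0.0533 in that order, and 11 of 18 alternative fits called it. Flt1 differed by 0.18 ± 0.15, while its other 3 probe sets had the opposite sign, at -0.22 to -0.39, and none of the 4 passed.

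Among the ligands on Matrigel, Vegfa read 5.81, 6.68 and 6.78 log2 in wild type and 5.48, 5.79 and 5.92 in Fz4-/- cells. Replicate 1 was lowest in both groups, and the groups overlapped only through it. The difference of -0.70 ± 0.28 (SE) did not pass (adjusted p = 0.119), and without wild type replicate 1 it was -1.0 (adjusted p = 0.0188). The second Vegfa probe set differed by -0.14 ± 0.15 on Matrigel (adjusted p = 0.637 over all probe sets) and by -0.20 ± 0.15 on gelatin, so the Vegfa values and calls here are those of the brightest probe set. Vegfb differed by -0.27 ± 0.50, Vegfc by 0.83 ± 0.53 and Pgf by 0.13 ± 0.26. With the replicate number as a block 6 of 8 members passed, beside 24.1% of all genes, adding Vegfa (-0.70, adjusted p = 0.00297), Vegfb (-0.27, adjusted p = 0.0214) and Vegfc (0.83, adjusted p = 0.0181). Without replicate 1 of every group 6 of 8 passed, beside 26.7% of all genes.

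The gelatin and Matrigel comparisons of genotype share no arrays, but they come from the same fit and share its estimate of the spread. Same-numbered gelatin and Matrigel arrays also deviated together, with correlations of 0.366 to 0.718 in wild type and 0.403 to 0.661 in Fz4-/- cells. Of 6 arrays in each genotype, however, 2 in wild type and 3 in Fz4-/- cells correlated best with their own number. Replicate 1 stood apart in each of these groups, and its part in the correlations was not tested. Endothelial markers also differed with genotype: their median difference was 0.19 on gelatin, with 5 of 12 higher and 0 lower, and 0.28 on Matrigel, with 4 higher and 0 lower. On gelatin their mean level per array was 10.0 to 10.2 for wild type and 10.2 to 10.3 for Fz4-/-, and on Matrigel it was 10.2 to 10.4 and 10.4 to 10.8. Of 4 lymphatic markers 1, Lyve1, was higher in Fz4-/- cells in each culture, at 12.3 against 9.81 on gelatin and 11.8 against 9.09 on Matrigel. Prox1, which defines lymphatic endothelium, was at 3.49 against 3.79 on gelatin and at 3.76 against 3.54 on Matrigel. The mean level of these 4 per array was 7.66 to 7.73 for Fz4-/- and 6.87 to 7.37 for wild type on gelatin, and 7.60 to 7.85 and 6.78 to 7.14 on Matrigel. The part of these cell markers in the Kdr and Nrp2 differences was not tested.

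**Figure D2:**
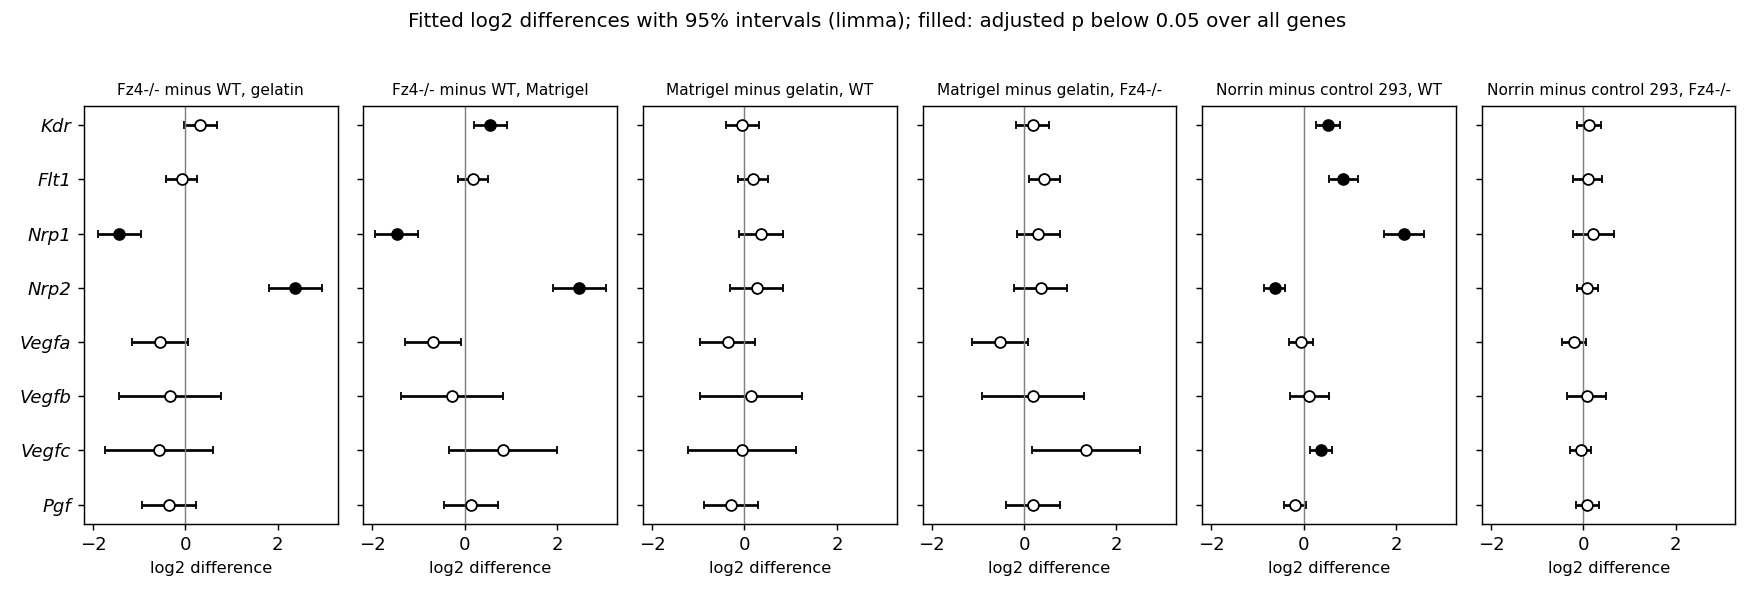
Fitted log2 differences of the 8 genes with 95% intervals in 6 comparisons, 3 arrays against 3 in each; filled points passed an adjusted p of 0.05 over all genes. Nrp1 is lower and Nrp2 higher in both genotype panels, Nrp1, Flt1, Kdr and Vegfc are higher and Nrp2 lower with Norrin in wild type cells, and no point is filled for Matrigel or for Norrin in Fz4-/- cells.

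The next comparison asks how cells change when moved from gelatin to Matrigel, where endothelial cells are known to align into cords. The change of matrix comes with starvation and low serum, from which it cannot be told apart. None of the 8 members passed in either genotype, beside 18.4% of all genes in wild type and 19.7% in Fz4-/- cells. In limma, 0 of 8 members passed also for the difference between the genotypes' responses, beside 0.0165% of all genes. At an unadjusted p under 0.05 the counts were 0 in wild type, 2 in Fz4-/- cells and 0 for that difference. The members' median change was 0.05 log2 in wild type and 0.25 in Fz4-/- cells, beside -0.05 and -0.05 over all genes.

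In wild type cells the changes ran from -0.37 ± 0.28 for Vegfa to 0.36 ± 0.21 for Nrp1. In Fz4-/- cells Flt1 read 8.22, 8.51 and 8.53 log2 on gelatin and 8.82, 8.85 and 8.91 on Matrigel. All Matrigel arrays were above all gelatin arrays, and the change of 0.44 ± 0.15 (SE) missed the threshold (adjusted p = 0.0624). With the replicate block it passed (adjusted p = 0.00709). The other Flt1 probe sets changed by -0.05 to 0.27. Flt1, Nrp2 and Vegfc were the 3 of 8 members whose arrays did not overlap in Fz4-/- cells, beside 39.1% of all genes, and Nrp1 was the 1 of 8 in wild type cells, beside 38.5%.

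Among the 8 members Vegfc had the largest fitted change on Matrigel in Fz4-/- cells. It read 4.76, 5.52 and 5.20 log2 on gelatin and 5.75, 7.02 and 6.71 on Matrigel. The groups did not overlap, yet the spread within each was wide, and the change of 1.34 ± 0.53 (SE) had an adjusted p of 0.101. Another Vegfc probe set changed by 1.66 ± 0.36 (adjusted p = 0.00906 over all probe sets) and the remaining one by 0.37. In wild type cells the 3 Vegfc probe sets changed by -0.59 to 0.42, and the difference between the genotypes' responses, 1.4 ± 0.76 for the brightest, did not pass (adjusted p = 0.9997).

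The probe sets of Vegfa differed. The brightest changed by -0.37 ± 0.28 in wild type and -0.52 ± 0.28 in Fz4-/- cells (adjusted p of 0.395 and 0.214). The second fell by 0.94 ± 0.15 in wild type and 0.88 ± 0.15 in Fz4-/- cells (adjusted p of 0.00230 and 0.00281 over all probe sets, of which 17.2% passed in wild type and 19.1% in Fz4-/- cells). Which transcripts each probe set reads was not tested. With the replicate block 3 of 8 members passed in Fz4-/- cells, beside 28.2% of all genes: Flt1, Vegfa (-0.52, adjusted p = 0.0147) and Vegfc (1.34, adjusted p = 0.00183). In wild type the block left the count at 0 of 8, beside 26.4%. Without replicate 1 of every group 4 of 8 passed in wild type, beside 28% of all genes, and 5 of 8 in Fz4-/- cells, beside 30.2%.

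Vegfd, which is no member, is a ligand akin to Vegfc and rose on Matrigel by 1.13 ± 0.18 in wild type (adjusted p = 0.00186) and by 1.41 ± 0.18 in Fz4-/- cells (adjusted p = 0.000509). Flt4, the receptor of Vegfc and Vegfd, changed by -0.14 ± 0.12 and -0.04 ± 0.12.

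The central comparison asks what Norrin does to the pathway. In wild type cells cultured with Norrin-making HEK293 cells, Nrp1 was 4.51-fold higher than with control HEK293 cells, Flt1 1.81-fold higher and Kdr 1.45-fold higher. Vegfc was 1.29-fold higher at low levels, and the brightest Nrp2 probe set fell by 0.63 log2, that is 1.55-fold lower. In all, 5 of 8 members passed, beside 9.57% of all genes, with 4 higher (5.39% of all genes) and 1 lower (4.18%). The members' median change was 0.24, beside -0.02 over all genes.

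Nrp1 read 6.69, 5.84 and 6.06 log2 with control cells and 8.65, 8.37 and 8.10 with Norrin cells. The lowest Norrin array lay above the highest control array by more than 1 log2, and replicate 1 was the highest in both groups. The change was 2.17 ± 0.21 (SE; adjusted p = 1.65e-06), with an interval of 1.74 to 2.61. All 4 Nrp1 probe sets rose, by 0.92 to 2.48.

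Flt1 read 5.57, 5.98 and 5.93 log2 with control cells and 6.28, 6.96 and 6.82 with Norrin cells. Replicate 1 was lowest in both groups, and the groups did not overlap. The change was 0.86 ± 0.15 (SE; adjusted p = 0.00107). The other 3 probe sets changed by 0.05 to 0.36 and did not pass, so 1 of 4 Flt1 probe sets was called, beside 7.17% of all probe sets.

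Kdr read 6.51, 6.44 and 6.41 log2 with control cells and 6.66, 7.16 and 7.14 with Norrin cells. All Norrin arrays were higher, replicate 1 only slightly. The change of 0.53 ± 0.12 (SE; adjusted p = 0.00973) did not pass without Norrin replicate 2 (0.45, adjusted p = 0.0573) or Norrin replicate 3 (0.45, adjusted p = 0.0571), and 14 of 18 alternative fits called it.

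Nrp2 read 6.52, 6.60 and 6.44 log2 with control cells and 5.88, 5.86 and 5.92 with Norrin cells. Both groups were tight and did not overlap, and the change was -0.63 ± 0.10 (SE; adjusted p = 0.000645). The other 3 Nrp2 probe sets changed by 0.02, 0.13 and -0.14 and did not pass. The mean of all 4 changed by -0.15 (adjusted p = 0.300), so 1 of 4 probe sets carried the fall, whereas all 4 carried the genotype difference in cells grown alone.

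Vegfc read 2.69, 2.66 and 2.87 log2 with control cells and 3.07, 3.06 and 3.22 with Norrin cells. These levels were between the 16.1th and 30.5th percentile of genes on their arrays. The change of 0.37 ± 0.11 (SE; adjusted p = 0.0392) passed in 7 of 17 alternative fits. It did not pass without control replicate 1 or 2 or Norrin replicate 2 or 3 (adjusted p of 0.0922, 0.127, 0.0686 and 0.152). In the fit of all probe sets the 3 Vegfc probe sets changed by 0.17 to 0.37, and 0 passed.

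The remaining ligands did not pass. Vegfa changed by -0.07 ± 0.12, Vegfb by 0.12 ± 0.20 and Pgf by -0.19 ± 0.12. For Vegfa the 95% interval ran from -0.33 to 0.19 and for Pgf from -0.43 to 0.05. In Vegfb, replicate 1 read 6.02 and 6.15 while the other replicates read 6.76 to 6.98, a gap larger than the fitted change.

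Markers of endothelial cells rose in the same arrays. Of 12, 10 were higher with Norrin and 0 lower, with a median change of 0.78 and a range of 0.13 to 1.29. Their mean level per array was 6.04 to 6.33 with control cells and 6.74 to 7.12 with Norrin cells, with Vwf near the bottom of the range already in cells grown alone. The changes of Kdr and Flt1 lie within the range of these markers, and that of Nrp1 lies above it. Of 5 fibroblast markers 1 rose and 1 fell, with a median change of 0.05. Their mean level per array was 5.06 to 5.21 with control cells and 4.56 to 4.81 with Norrin cells. Dcn read 7.61 with control cells and 4.7 with Norrin cells, while Col1a2 read 7.99 and 8.8. The part of the endothelial share of the RNA, or of fibroblast RNA, in the members' changes was not tested. When replicate 1 of every group was left out, 4 of 8 members passed, beside 11.1% of all genes. With the replicate number as a block the same count of 5 of 8 passed, beside 11.1%.

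In Fz4-/- cells none of the 8 members changed past the threshold with Norrin, beside 0.456% of all genes, and in limma 0 of 8 passed in each alternative fit. At an unadjusted p under 0.05 it was also 0 of 8. Nrp1 read 4.48, 3.88 and 4.38 log2 with control cells and 4.19, 4.77 and 4.45 with Norrin cells. The groups overlapped, and the change was 0.22 ± 0.21 with an interval of -0.22 to 0.66. Kdr changed by 0.13 ± 0.12, Flt1 by 0.09 ± 0.15 and Nrp2 by 0.09 ± 0.10. The ligands changed by -0.21 to 0.09. Of the 8 members, 0 had arrays that did not overlap, beside 19.5% of all genes, while in wild type 5 did, beside 21.4%.

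The difference between the responses was tested itself. Genotype and array set cannot be told apart in it either. It was -1.95 ± 0.29 log2 for Nrp1 (SE; adjusted p = 0.000885), which all 23 alternative fits called. It was 0.72 ± 0.15 for the brightest Nrp2 probe set (adjusted p = 0.0121), but 0.23 for the mean of the Nrp2 probe sets (adjusted p = 0.441). These 2 of 8 members passed, beside 2.12% of all genes, and 3 of 4 Nrp1 and 1 of 4 Nrp2 probe sets did, beside 1.45% of all probe sets. For Flt1 it was -0.77 ± 0.21 (adjusted p = 0.0789) and for Kdr -0.40 ± 0.18 (adjusted p = 0.353), and neither passed. Flt1 was called in 4 of 23 alternative fits, among them quantile normalization (-0.76, adjusted p = 0.0267), the replicate block (-0.77, adjusted p = 0.0411) and replicate 1 of every group left out (-0.76, adjusted p = 0.0185). Without Norrin wild type replicate 1 both were called, Flt1 at -0.97 (adjusted p = 0.00398) and Kdr at -0.57 (adjusted p = 0.0315). With replicate 1 of every group left out, 3 of 8 passed, beside 2.47% of all genes. Endothelial markers were at 7.15 to 7.26 with control cells and 7.29 to 7.44 with Norrin cells in Fz4-/- co-cultures, and 0 of 12 passed in limma, beside 4 at an unadjusted p under 0.05. The markers' own difference between responses had a median of -0.56 and ran from -1.22 to -0.12. Of the 12, 4 were lower and 0 higher past the threshold. The part of these markers in the members' differences was not tested.

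**Figure D3:**
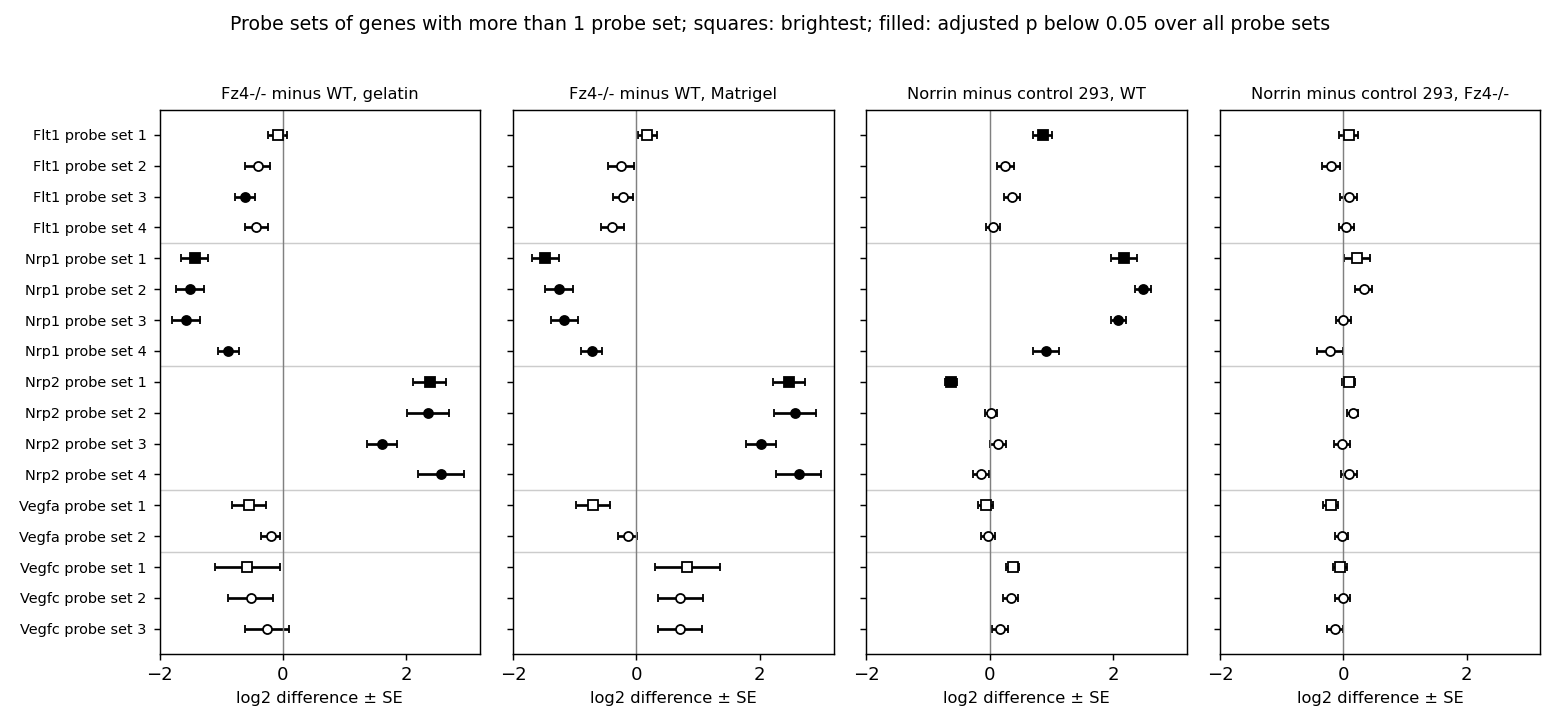
Log2 differences with SE for each probe set of the 5 genes that have several, in 4 comparisons of 3 arrays against 3; squares are the brightest probe sets and filled symbols passed an adjusted p of 0.05 over all probe sets. All 4 Nrp1 and all 4 Nrp2 probe sets are filled for genotype, all 4 Nrp1 sets are filled for Norrin in wild type cells, and 1 of 4 Nrp2 and 1 of 4 Flt1 sets are.

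Genotypes in co-culture are given as a description only, since array set and genotype cannot be told apart there and 50.9% of all genes passed with control cells and 49.9% with Norrin cells. With control cells 5 of 8 members passed: Kdr by 1.28, Nrp2 by 1.94, Nrp1 by -1.95, Vegfa by -1.90 and Vegfc by -0.53 log2. With Norrin cells 6 of 8 passed, with Kdr at 0.87, Nrp2 at 2.66, Flt1 at -0.58, Nrp1 at -3.90, Vegfa at -2.04 and Vegfc at -0.96. The second Vegfa probe set differed less, by -0.65 in each. Of 3 Vegfc probe sets 1 passed with control cells, at -0.12 to -0.53, and the call was lost with all 24 arrays in one fit (adjusted p = 0.269). The Flt1 call was lost after median centring (-0.37, adjusted p = 0.0824) and with replicates 2 and 3 averaged (-0.49, adjusted p = 0.0703). The median gene was lower in Fz4-/- arrays by -0.20, and scaling moved the share of higher calls from 23.8% to 49.4% with control cells and from 23.1% to 52.5% with Norrin cells after median centring. The signs of Nrp1, Nrp2, Kdr and Vegfa held in all 18 alternative fits of each, that of Vegfc in all 17, and that of Flt1 with Norrin cells in all 18. Of 12 endothelial markers 9 were higher and 0 lower in Fz4-/- cells with control cells (median 0.93), and 6 higher and 3 lower with Norrin cells (median 0.31). Of 5 fibroblast markers 4 were lower and 0 higher in each, with a mean level per array of 3.17 to 3.28 against 5.06 to 5.21 with control cells and 3.05 to 3.2 against 4.56 to 4.81 with Norrin cells. The part of these markers in the members' differences was not tested. The brightest Vegfa probe set read 5.74, 6.10 and 5.85 in wild type with control cells and 4.07, 4.18 and 3.75 in Fz4-/- cells. With Norrin cells all 3 Fz4-/- arrays read 3.79 after rounding to 2 decimals. One Nrp1 probe set differed by 0.08 with control cells, against -1.51 to -1.95 for the others.

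The levels of each gene in cells grown alone were put in order. For Kdr they ran from wild type on Matrigel (10.15 ± 0.24, SD, n = 3) and gelatin (10.19 ± 0.06) to Fz4-/- on gelatin (10.52 ± 0.27) and Matrigel (10.70 ± 0.26), and the cultures of each genotype overlapped. For Flt1 all neighbours overlapped, from 8.42 ± 0.18 in Fz4-/- cells on gelatin to 8.86 ± 0.04 in Fz4-/- cells on Matrigel. For Nrp1 the order was Fz4-/- gelatin (6.88 ± 0.13), Fz4-/- Matrigel (7.19 ± 0.53), wild type gelatin (8.31 ± 0.26) and wild type Matrigel (8.67 ± 0.08), with overlap only between the Fz4-/- cultures. For Nrp2 it was wild type gelatin (8.63 ± 0.52), wild type Matrigel (8.89 ± 0.52), Fz4-/- gelatin (11.01 ± 0.07) and Fz4-/- Matrigel (11.36 ± 0.12), with overlap only between the wild type cultures.

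The ligands showed no such steps. Vegfa ran from 5.73 ± 0.22 in Fz4-/- cells on Matrigel to 6.79 ± 0.21 in wild type cells on gelatin, Vegfb from 8.21 ± 0.82 to 8.67 ± 0.72, Vegfc from 5.16 ± 0.38 to 6.50 ± 0.66 and Pgf from 10.99 ± 0.52 to 11.34 ± 0.30, and neighbours in each order overlapped. Pgf lay between the 94.4th and 98.1th percentile of genes in cells grown alone. In these cells replicate 1 was the lowest Vegfb and Vegfc value of every group, at 7.26 to 7.84 against 8.68 to 9.09 for Vegfb and 4.40 to 5.75 against 5.20 to 7.02 for Vegfc. It was the highest Pgf value of every group.

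The pathway around the members was read from lists of its genes, which were chosen with earlier results of these data known. With Norrin in wild type cells, 6 of 31 VEGF receptor signal transducers rose and 2 fell, with a median of 0.09, beside -0.02 over all genes. Of all genes 5.39% rose and 4.18% fell in this comparison. Ptprb, the phosphatase that restrains Kdr at junctions, rose by 1.41 ± 0.15, and Cdh5, the junction cadherin that partners Kdr, rose by 1.06 ± 0.15. The kinase Prkca and the transcription factor Nfatc1 rose by 0.56 ± 0.14 and 0.56 ± 0.13. Of 18 genes known to respond to VEGF, 4 rose and 3 fell, with a median of 0.11. Among them F3, which encodes tissue factor, rose by 0.96 ± 0.18 and Angpt2, a ligand of Tek, rose by 0.66 ± 0.16, while Ptgs2 fell by 0.67 ± 0.13 and Cxcr4 fell by 0.64 ± 0.15. Genes of this list thus moved in both directions. Cdh5 is also 1 of the 12 endothelial markers, of which 10 rose and 0 fell in these arrays, with a median of 0.78. The part of that rise in the changes of these lists was not tested.

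The counts that follow also stand beside 5.39% of all genes that rose and 4.18% that fell with Norrin in wild type cells. Among semaphorins and their plexin receptors, 1 of 7 class 3 semaphorins and 1 of 9 plexins rose there. These were Sema3e (0.59 ± 0.10), a ligand of Plxnd1, and Plxna2 (0.69 ± 0.13), a semaphorin receptor. Of 12 endothelial ETS, GATA and SoxF factors, which act at endothelial gene promoters and enhancers, 5 rose and 0 fell, with a median of 0.35. The 4 largest were Fli1 (1.45 ± 0.13), Ets2 (1.31 ± 0.17), Elk3 (0.99 ± 0.10) and Sox18 (0.92 ± 0.18). Of 12 endothelial markers, 10 rose and 0 fell in the same arrays, with a median of 0.78, and Erg is on both lists. The part of that rise in the changes of these factors was not tested. Of 9 hypoxia factors Egln3 rose (0.49 ± 0.14) and Hif1a fell by 0.83 ± 0.13, and of 13 hypoxia targets Ldha rose (0.75 ± 0.11) while Hk2 fell by 0.84 ± 0.17 and Aldoa fell by 0.49 ± 0.10. Vegfa, itself a hypoxia target, changed by -0.07 in these arrays.

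In Fz4-/- cells with Norrin, 0 of 31 transducers, 0 of 7 semaphorins and 0 of 9 plexins passed in limma, beside 4, 0 and 0 at an unadjusted p under 0.05. Ptgs2 (0.89 ± 0.13) and Adamts1 (0.85 ± 0.13) rose among VEGF-responsive genes, Adm (0.72 ± 0.13) among hypoxia targets, and Ets2 (0.80 ± 0.17) and Fli1 (0.61 ± 0.13) among the ETS, GATA and SoxF factors. Ets2 and Fli1 lay close to the threshold (limma, adjusted p = 0.0467 and 0.0481). The difference between the genotypes' responses passed for Ptgs2 (1.56 ± 0.18), Ptprb (-1.08 ± 0.21), Fli1 (-0.84 ± 0.18), Elk3 (-0.76 ± 0.15) and Sema3e (-0.80 ± 0.14). It also passed for the transducer Gipc1 (-0.67 ± 0.16), the hypoxia factor Hif1a (0.99 ± 0.18) and the hypoxia targets Hk2 (1.25 ± 0.24) and Ldha (-0.75 ± 0.15). Ptgs2 thus fell in wild type and rose in Fz4-/- cells. Over all genes 0.214% were higher and 0.242% lower with Norrin in Fz4-/- cells, and the responses differed upward in 0.874% and downward in 1.24%. Genotype and array set cannot be told apart in the difference between responses.

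**Figure D4:**
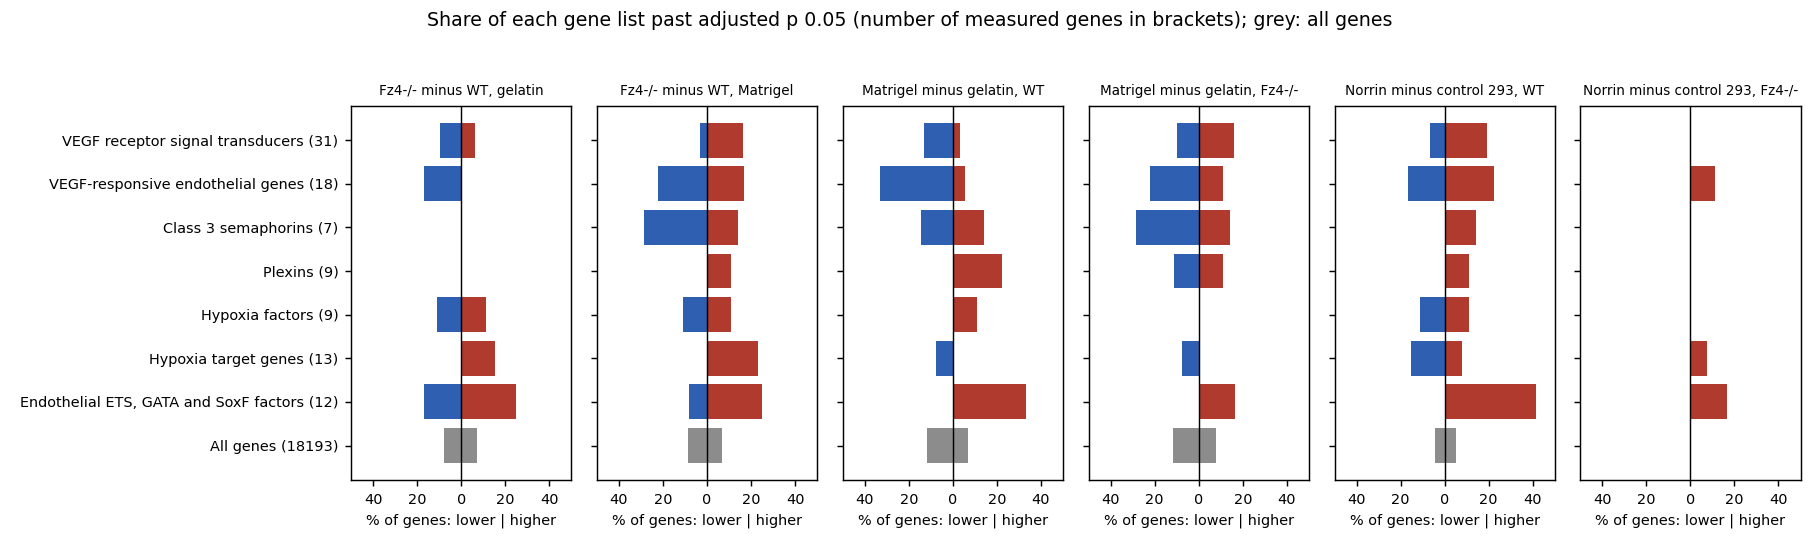
Percent of the genes of each pathway list past an adjusted p of 0.05, with genes that were higher to the right of 0 in red and lower to the left in blue, in 6 comparisons; grey bars show all genes. The 12 ETS, GATA and SoxF factors had 5 higher and 0 lower with Norrin in wild type cells, where 5.39% of all genes were higher. Of 12 endothelial markers, which are not drawn, 10 were higher and 0 lower in that comparison.

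By genotype on gelatin, 2 of 31 transducers were higher and 3 lower in Fz4-/- cells, with a median of -0.02 beside -0.004 over all genes, of which 7.21% were higher and 7.73% lower. Efnb2 (-0.57 ± 0.17), Nos3 (-0.46 ± 0.10) and Dab2 (-0.45 ± 0.10) were lower and Shb (0.47 ± 0.13) higher. Of 18 VEGF-responsive genes 3 were lower and 0 higher: the Netrin receptor gene Unc5b by -1.67 ± 0.20, the Notch ligand gene Dll4 by -1.66 ± 0.25 and Vcam1 by -0.90 ± 0.23. Of the 12 ETS, GATA and SoxF factors 3 were higher and 2 lower, led by Sox17 at -4.82 ± 0.18. No semaphorin or plexin passed on gelatin, 0 of 7 and 0 of 9 in limma, beside 2 and 0 at an unadjusted p under 0.05. Epas1, a hypoxia factor abundant in endothelium, was lower by -0.81 ± 0.12, and the hypoxia targets Ndrg1 (1.24 ± 0.18) and Adm (0.55 ± 0.14) were higher.

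By genotype on Matrigel, 5 of 31 transducers were higher and 1 lower, beside 6.91% and 8.77% of all genes. Efnb2 was lower by -1.22 ± 0.17, and Ptprb (0.75 ± 0.16), Nck1 (0.46 ± 0.11) and Shb (0.43 ± 0.13) were higher. VEGF-responsive genes were split, with 3 higher and 4 lower of 18: Adamts1 (1.64 ± 0.24) and Apln (1.33 ± 0.35) against Unc5b (-1.40 ± 0.20) and Cxcr4 (-0.87 ± 0.23). Of the 7 class 3 semaphorins Sema3a was higher (1.46 ± 0.34), and Sema3g (-1.25 ± 0.26) and Sema3e (-0.79 ± 0.21) were lower in Fz4-/- cells. The Sema3e receptor gene Plxnd1 was higher by 0.68 ± 0.10. Sox17 was lower by -4.52 ± 0.18.

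Matrigel moved pathway genes in both genotypes. Of 18 VEGF-responsive genes 1 rose and 6 fell in wild type, with a median of -0.57 beside -0.05 over all genes, and 2 rose and 4 fell in Fz4-/- cells, with a median of -0.05. Over all genes 6.71% rose and 11.7% fell in wild type, and 7.91% and 11.8% did in Fz4-/- cells. In wild type and Fz4-/- cells in that order, F3 changed by -2.87 ± 0.54 and -2.36 ± 0.54, Dusp5 by -1.69 ± 0.21 and -1.78 ± 0.21, and Cxcr4 by 2.11 ± 0.23 and 1.93 ± 0.23, and each passed in both. Plxnd1 rose by 0.43 ± 0.10 and 1.05 ± 0.10 and Ets2 by 0.76 ± 0.19 and 1.04 ± 0.19. Sema3e changed by -0.68 ± 0.21 and -1.09 ± 0.21 and Adm by -1.03 ± 0.14 and -0.98 ± 0.14, also past the threshold. Over all genes, 36.4% of the calls in wild type and 40.1% in Fz4-/- cells were rises, and 25.5% and 26.2% after median centring.

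The genes most like each receptor were found by the root mean square (RMS) difference between 6 fitted log2 differences over 24 arrays, comparisons that share groups. For Kdr they were Heatr5a (RMS 0.0462), Galc (0.0672) and Cdk14 (0.0680), where the median over all genes was 0.412. For Flt1 they were Tbc1d8b (0.0958), Tmem51 (0.116) and Nid2 (0.125), with a median of 0.480. The neuropilins, whose own differences are larger, had larger RMS values and larger medians. For Nrp1 they were Acer2 (0.411), Gbp6 (0.461) and Ctsh (0.483), with a median of 1.27, and for Nrp2 they were Trpv4 (0.178), Fam174b (0.252) and Tgm2 (0.255), with a median of 1.45. Trpv4 differed by 2.57 between genotypes on gelatin, 2.65 on Matrigel and -0.32 with Norrin in wild type cells, beside 2.38, 2.48 and -0.63 for Nrp2.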

How the data were processed

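The deposited log2 probe set intensities of the 24 Affymetrix arrays were made by the authors with RMA, per the submitters' processing notes. No version is given there, nor which arrays were normalized together. Of 45101 probe sets, 34945 have 1 gene symbol in the platform annotation, 932 several, 9160 none and 64 are controls. Gene IDs tied 34741 of these named sets to RefSeq (GRCm38.p6), which gave promoter windows for 8 of 8 members.

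A model of group means was fitted by limma 3.58.1 under R 4.3.3 (lmFit, eBayes, Benjamini-Hochberg at 0.05 over all genes), once for the 12 cultures grown alone and once for the 12 co-cultures, with 8 residual degrees of freedom. All named probe sets were fitted likewise. With 3 arrays against 3 the smallest exact two-sided permutation p is 0.1, and the number of arrays limits the precision. The procedure was tested on simulated data with independent noise on each array, so that test does not cover arrays that deviate together.

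Named genes are the members, Fzd4, the 4 largest called genes of a list in a comparison, and the 3 genes nearest to each receptor; Vegfd, Flt4 and the cell markers named were added after their values were seen. Members and lists were chosen with earlier results of these data known.

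Replicate numbers come from the labels. Same-numbered arrays deviated together, with correlations of 0.243 to 0.718 in cultures grown alone, 0.100 to 0.361 for wild type cells with and without Norrin, and 0.138 to 0.372 for genotype with Norrin cells, and were treated as pairs there. The correlations were -0.186 to 0.00603 for Fz4-/- cells with and without Norrin and -0.0482 to 0.0656 for genotype with control cells.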

Additional observations from a re-analysis of the deposited data

Results flagged for a closer look

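The response to Norrin differed between wild type and Fz4-/- cells for Nrp1, by -1.95 ± 0.29 log2 (SE, n = 3 arrays per group; limma, adjusted p = 0.000885), and 23 of 23 alternative fits called it, with adjusted p of 3.35e-06 to 0.0298. In wild type cells all 3 Norrin arrays were above each control array, and in Fz4-/- cells the arrays overlapped. Genotype and array set cannot be told apart in this comparison. The endothelial markers' own difference between responses had a median of -0.56, and its part in the Nrp1 value was not tested.

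The response also differed for the brightest Nrp2 probe set, by 0.72 ± 0.15 (limma, adjusted p = 0.0121). Over the 23 alternative fits the adjusted p ran from 0.00775 to 0.441, and 20 called it. The other 3 Nrp2 probe sets did not pass.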

How the results depend on the processing

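Counts of the 8 members past the threshold kept within 1.5 times the reported count except as follows. For Matrigel in Fz4-/- cells (0) they were 1 with all 24 arrays fitted together, with a gene's probe sets averaged and with quantile normalization, and 3 with only the groups compared and with the replicate number as a block. For Matrigel in wild type (0) the mean of probe sets gave 1. For Norrin in wild type (5) the count was 3 with the mean of probe sets, with only the groups compared and with replicates 2 and 3 averaged, and 3 to 5 when a single array was left out. For the difference between Norrin responses (2) it was 1 with all 24 arrays, with the mean of probe sets and with replicates 2 and 3 averaged, and 2 to 4 when a single array was left out. With the replicate block it was 5 for genotype on gelatin and 6 on Matrigel. Without replicate 1 of every group, 6 members passed in each genotype comparison of cells grown alone, 4 for Matrigel in wild type, 5 in Fz4-/- cells and 1 for the difference between Matrigel responses.

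The block also called Vegfb for genotype with Norrin cells (-0.43, adjusted p = 0.0407) and Flt1 for the difference between Norrin responses (-0.77, adjusted p = 0.0411), where the numbers were not shown to pair all 4 groups; beside the calls given in the report it changed no other.

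Among the members' values in the text, signs changed in 25 fits with an array left out and in 5 others, none of them past the threshold, and the cause was not tested. The mean of probe sets gave Flt1 -0.037 for Matrigel in wild type and -0.17 for genotype on Matrigel. Quantile normalization gave Kdr 0.072 for Matrigel in wild type. Without replicate 1 of every group Kdr was 0.079 and Vegfc 0.11 there. With single arrays left out, Vegfb ran from -0.74 to 0.15 for genotype on gelatin, from -0.69 to 0.12 on Matrigel, from -0.28 to 0.55 for Matrigel in wild type, from -0.29 to 0.58 in Fz4-/- cells, from -0.14 to 0.37 for Norrin in wild type and from -0.30 to 0.22 for the difference between Norrin responses. For Matrigel in wild type Kdr ran from -0.13 to 0.092, Nrp2 from -0.035 to 0.56 and Vegfc from -0.53 to 0.57. Flt1 ran from -0.21 to 0.021 for genotype on gelatin, Pgf from -0.051 to 0.31 for genotype on Matrigel, Vegfa from -0.14 to 0.034 for Norrin in wild type and Vegfc from -0.12 to 0.013 for Norrin in Fz4-/- cells.

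Of the other genes, Flt4 for Matrigel in Fz4-/- cells was 0.078 with quantile normalization, 0.075 without replicate 1 of every group and -0.12 to 0.12 with single arrays left out. Erg for Matrigel in wild type was -0.029 with the mean of probe sets. The other named genes counted here are pathway genes with Fzd4, Vegfd, Flt4, Trpv4 and Lyve1. Their calls were lost in 164 fits with an array left out and in 175 others. Direction and the called or uncalled state were kept in 584 and 1177 fits, in that order. Which pathway calls were lost is not given here. Calls over all genes ranged from 667 to 4911 for genotype on gelatin and from 691 to 2507 for Norrin in wild type, beside 2719 and 1741 as reported.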
